A study of Homo sapiens with 6 samples.

Results

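The high-area shHMGA1-only sites are ATAC-seq peaks called after HMGA1 silencing that reached a set area and had no peak nearby in control cells. A site was taken from the shHMGA1 peak list where it lay on chromosomes 1 to 22, had an area of at least 700 and had no peak of the control (Con) list within 1000 bp of either edge. Chromosome 4 from 154000000 to 189000000 and chromosome 9 from 2000000 to 21000000 (hg19) were left out. The sites were thus chosen by their measured area and by their distance to the control peaks. This gave 324 sites among 91625 shHMGA1 peaks of that range and 112610 in the whole list. Every sample was labelled as DAMI, a line of human leukaemic cells, with the disease state MPN/AML (myeloproliferative neoplasm and acute myeloid leukaemia). There were 3 samples infected with a lentivirus carrying a short hairpin RNA against HMGA1 (shHMGA1) and 3 infected with a control lentivirus, so both groups share the infection. The series text also names the SET-2 line, which is not analysed here, and the lists carry the names of the groups only, so that DAMI as their sole source rests on the sample labels. Neither the identity of the line nor the level of HMGA1 was checked here, because the lists hold no expression values and no hg19 gene annotation was used.

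ATAC-seq marks open chromatin by the insertions of the Tn5 transposase, which cuts where DNA is not wrapped or masked by proteins. HMGA1 is an architectural protein of chromatin that binds the minor groove of AT-rich DNA through its AT-hooks and is known to compete with the linker histone H1. A peak present in only 1 of the lists passed the caller's threshold in that list and not in the other.

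The deposited data were 1 peak list per group, with no values per sample. Differences between the lists have no replicate check, and no test is given for any of them. Intervals are 95% exact binomial intervals on shares and order-statistic intervals on medians. They treat peaks as independent, cover counting error only and leave out the variation between cultures. Read depth is unknown. The area, per peak, is the area under the significance curve (−log10 p along the peak) that the authors' peak caller wrote. Height here means area divided by width. Whether the area counts the whole curve or only its part above a cutoff was not given. Height is therefore not read as a mean −log10 p. Area and height both rest on the authors' values and depend on depth.

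Peaks of this size were nearly always found in both lists. Of 41628 shHMGA1 peaks with an area of at least 700, 324 had no Con peak within 1000 bp, or 0.778% (0.696 to 0.867). Of all shHMGA1 peaks of the range, 11307 had none, or 12.3%, so the 324 sites were 2.87% (2.57 to 3.19) of the shHMGA1-only peaks. With the lists exchanged, the same rule gave 680 control-only sites among 46144 Con peaks of that area, or 1.47% (1.37 to 1.59). Control-only peaks of any area were 20.9% of 104364. The rule itself sets these counts, which are descriptions of the lists. High-area peaks as a whole were closer in number, 41628 in shHMGA1 and 46144 in control, a ratio of 0.902. The ratio was 0.476 for the high-area sites of 1 list only and 0.519 for 1-list peaks of any area.

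The share of peaks without a counterpart fell steeply with area in both lists. It was 34.8% of the shHMGA1 peaks and 52.4% of the Con peaks with an area of 200 to 300. In the class from 700 to 1000 it was 2.54% (2.24 to 2.87) in shHMGA1 and 5.05% (4.65 to 5.47) in control. From 1000 to 1500 it was 0.657% (0.498 to 0.850) and 1.10% (0.902 to 1.32). The order of the lists turned round only in the class from 1500 to 3000, where 19 of 10671 shHMGA1 peaks (0.178%, 0.107 to 0.278) and 12 of 11620 Con peaks (0.103%, 0.0534 to 0.180) had no counterpart, and there the intervals overlapped. Above 3000 no peak stood alone, 0 of 12514 in shHMGA1 and 0 of 13525 in control, which allows shares of up to 0.0240% and 0.0222% (3 counts of the total, as at every count of 0 here).

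**Figure D1:**
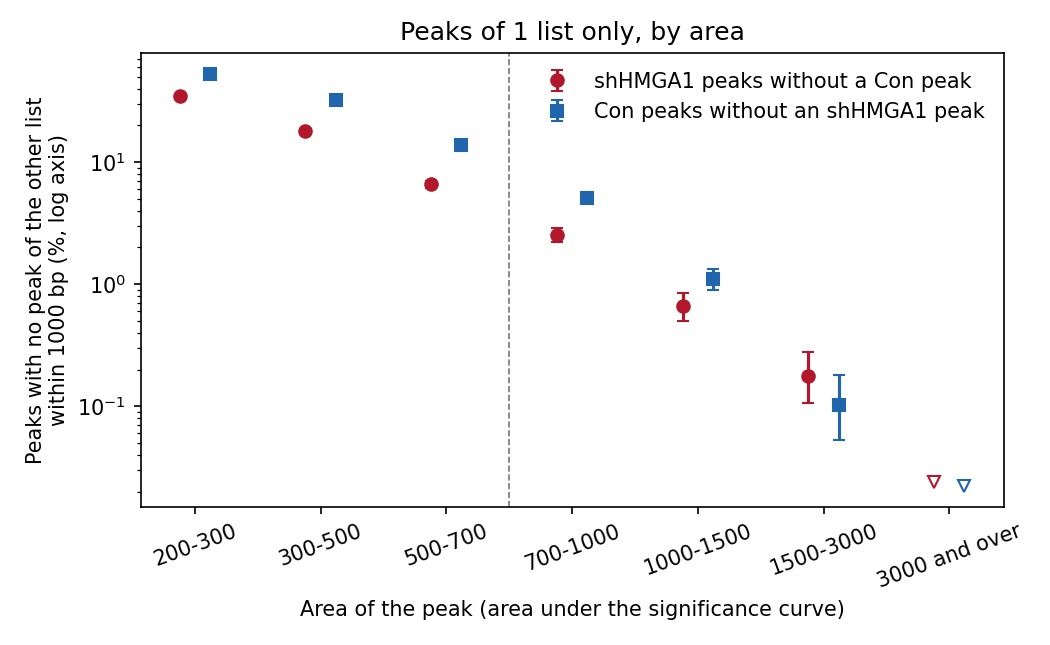
Share of peaks with no peak of the other list within 1000 bp (percent, log axis) by area class, for shHMGA1 peaks (circles) and Con peaks (squares). Bars are 95% exact intervals, open triangles mark the limit that a count of 0 allows, and the dashed line marks the area of 700. Both shares fell from class to class, to 0.178% of shHMGA1 peaks and 0.103% of Con peaks between 1500 and 3000.

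The sites were large by the rule but only moderate for their list. An area of at least 700 was reached by 45.4% of all shHMGA1 peaks of the range. Their area ran from 700.1 to 2239, with a median of 835, while the median of all shHMGA1 peaks of the range was 612. The largest of them ranked 16373 among all 91625 peaks. Areas of at least 1000 were reached by 76 of the 324 sites, of at least 1500 by 19 and of at least 2000 by 5. The median summit −log10 p was 5.69 (5.57 to 5.81), just above the median of 5.43 over the range, and 129 of the 324 sites (39.8%) lay below that median.

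Within the area classes up to 1500 the sites were wider and lower than the peaks that had a Con peak. Areas inside a class were not equal, with medians of 785 and 829 between 700 and 1000. Height is area divided by width, so width and height are not separate results. Between an area of 700 and 1000, the 248 sites had a median width of 613 bp (583 to 644), against 524 bp (518 to 529) for the 9520 shHMGA1 peaks with a Con peak within 1000 bp. Their median height was 1.32 (1.25 to 1.37), against 1.62 (1.60 to 1.64). Within the class from 1000 to 1500 the widths were 794 bp (649 to 953) for 57 sites and 638 bp (632 to 644) for 8618 peaks, and the heights 1.56 (1.27 to 1.80) and 1.89 (1.88 to 1.91). From 1500 to 2300 the 19 sites and the peaks with a Con peak had overlapping intervals for width, 850 bp (734 to 1011) and 806 bp (799 to 812), and for height, 2.01 (1.64 to 2.32) and 2.27 (2.25 to 2.29). Tall peaks were the scarcer kind among the sites. A height of 2 or more was found in 10.1% (6.63 to 14.5) of the sites with an area of 700 to 1000 and in 30.3% (29.4 to 31.3) of the peaks with a Con peak. The position of the summit differed by less than its intervals, with a median distance from the centre of 31.3% of the half-width (28.0 to 37.8) in the sites and 30.6% (30.0 to 31.3) in the others.

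Control-only sites had nearly the same shape. Their median width between 700 and 1000 was 632 bp (604 to 663) and their median height 1.26 (1.21 to 1.31), and both intervals overlapped those of the shHMGA1-only sites. The medians were farther apart among the few largest. The 19 shHMGA1-only sites with an area of at least 1500 had the 850 bp and 2.01 given above, while the 12 control-only sites of that size had 1207 bp (869 to 1587) and 1.35 (1.07 to 1.98). The intervals of both quantities overlapped, while those of the summit −log10 p did not, with 7.69 (6.93 to 8.20) in the shHMGA1-only sites and 6.10 (5.15 to 6.67) in the control-only sites.

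**Figure D2:**
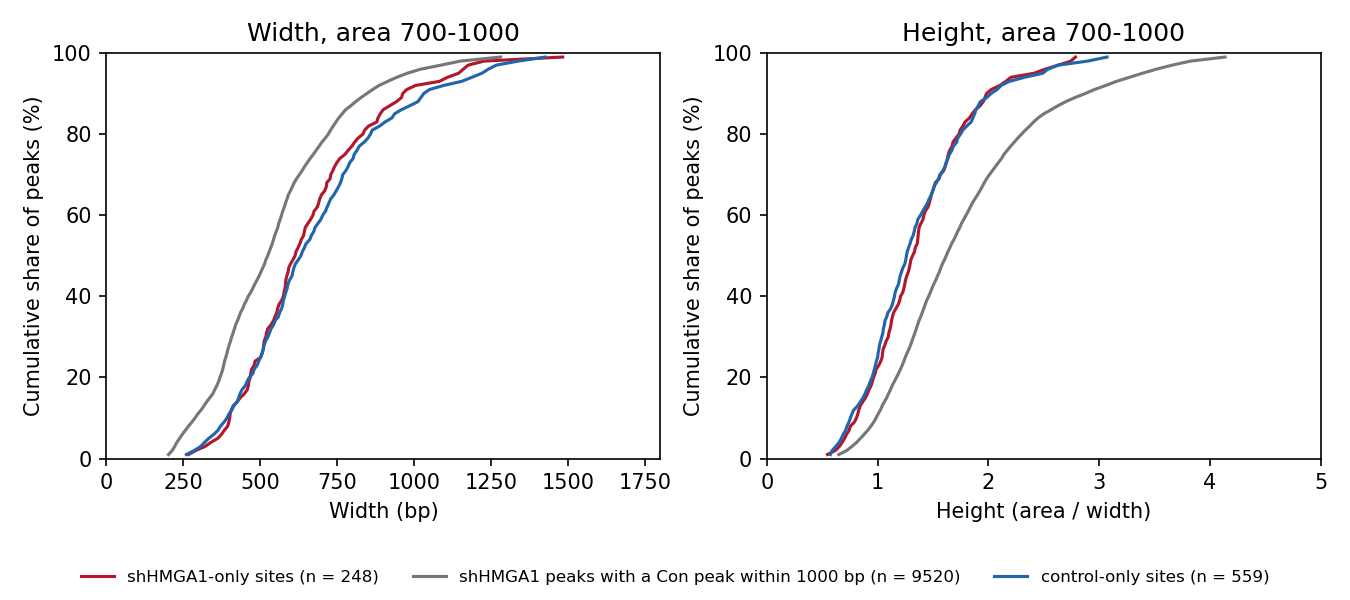
Cumulative share of peaks (percent) against width in bp (left) and height, area divided by width (right), for peaks with an area of 700 to 1000, drawn from the 1st to the 99th percentile. The curves of the shHMGA1-only sites and the control-only sites run close together, at larger widths and lower heights than the shHMGA1 peaks with a Con peak within 1000 bp.

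The site with the largest area lay on chromosome 7 from 141939861 to 141941057 (hg19, band 7q34). It was 1197 bp wide with an area of 2239, a height of 1.87 and a −log10 p of 7.67 at its summit. The closest Con peak lay 8063 bp from it. Almost as large was the site on chromosome 3 from 1030153 to 1030833 (3p26.3), with an area of 2224 in only 681 bp. Its height of 3.27 was second among all 324, and its nearest Con peak was 85859 bp away. The third, on chromosome 11 from 105999912 to 106001303 (11q22.3), was broader and flatter, with an area of 2081 over 1392 bp.

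The remaining 7 of the 10 largest varied in the same way between compact and broad forms. On chromosome 8 from 66209930 to 66210871 (8q13.1) a site of area 2062 stood 151807 bp from any Con peak. On chromosome 5 from 121693930 to 121694596 (5q23.2) a tall site of area 2058 and height 3.09 had a Con peak 1116 bp away, just outside the distance of the rule. Next came chromosome 14 from 68967734 to 68968574 (14q24.1; area 1950), chromosome 4 from 84241540 to 84242324 (4q21.23; 1910), chromosome 13 from 51721957 to 51723357 (13q14.3; 1777) and chromosome 11 from 31961637 to 31962486 (11p13; 1768). The last, on chromosome 9 from 139562219 to 139564534 (9q34.3), was the widest of all sites at 2316 bp and had a height of 0.755. A Con peak of area 4827, larger than the area of any site, lay 1194 bp from it.

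The 5 tallest sites were 334 to 681 bp wide. The greatest height, 3.83, belonged to a site of 334 bp on chromosome 10 from 61026161 to 61026494 (10q21.1), with an area of 1279 and the nearest Con peak 95694 bp away. Besides the 3p26.3 and 5q23.2 sites, the others were on chromosome 4 from 28127322 to 28127797 (4p15.1; height 2.92) and chromosome 5 from 76151774 to 76152113 (5q13.3; 2.81). Of the 5 sites farthest from any Con peak, only the 8q13.1 site was also among the 10 largest. The farthest, on chromosome 10 from 4493046 to 4493579 (10p15.1), was 363605 bp from a Con peak with an area of only 730, and the next, on chromosome 16 from 82970524 to 82971047 (16q23.3), was 200118 bp away with an area of 713. The other far sites were on chromosome 3 from 64866349 to 64867156 (3p14.1; 158294 bp) and chromosome 10 from 72805306 to 72805897 (10q22.1; 119625 bp), beside the 8q13.1 site above.

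Most sites lay within 50000 bp of a peak found in both lists. The median distance to the nearest shared peak, an shHMGA1 peak that overlapped a Con peak by at least 1 bp, was 11.4 kb, or 11402 bp (9057 to 12971). It was below 5000 bp at 90 sites (27.8%) and 50000 bp or more at 46 (14.2%, 10.6 to 18.5). Weaker shHMGA1-only peaks, with an area below 700, had a median of 9925 bp (9579 to 10267), and 9.27% (8.73 to 9.83) of them were 50000 bp or more away. Control-only sites lay nearer to shared peaks, at a median of 7137 bp (6286 to 7819), with 6.47% (4.74 to 8.59) at 50000 bp or more. The interval of the shHMGA1-only sites for the share at 50000 bp or more lay above those of both other sets, while their median overlapped that of the weaker shHMGA1-only peaks. Control-only peaks with an area below 700 had a median of 9692 bp (9449 to 9913), whose interval overlapped that of the shHMGA1-only sites. High-area shHMGA1 peaks that overlapped a Con peak had another shared peak at a median of 4966 bp, but they are not held to a minimum distance.

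**Figure D3:**
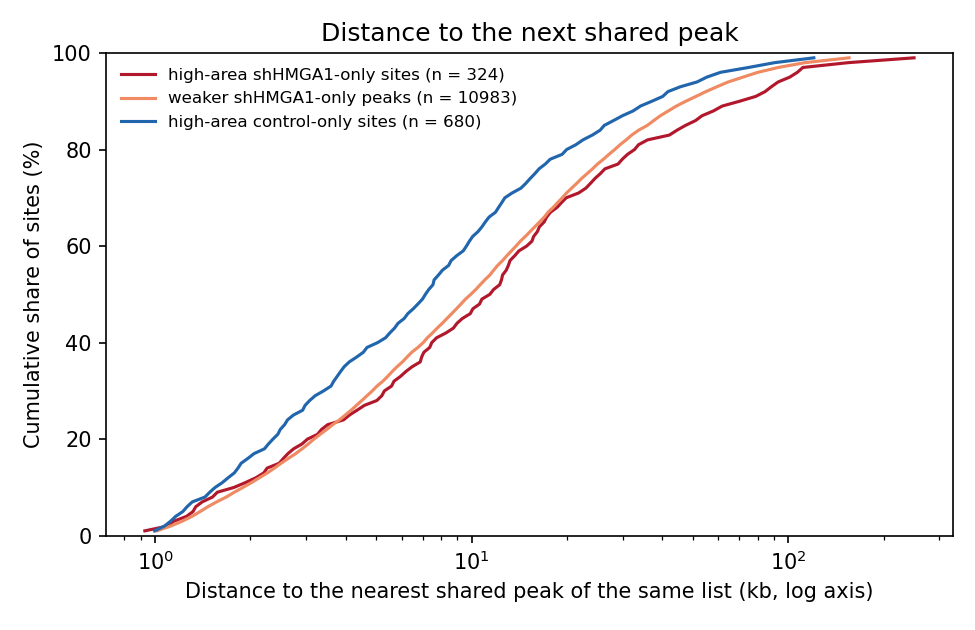
Cumulative share of sites (percent) against the distance to the nearest shared peak of the same list (kb, log axis). The medians were 11402 bp for the high-area shHMGA1-only sites, 9925 bp for weaker shHMGA1-only peaks and 7137 bp for the high-area control-only sites.

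Shape varied with distance among the sites. The 76 sites at 20 kb or more from a Con peak had a median width of 582 bp (552 to 650) and a height of 1.55 (1.38 to 1.73). The 111 sites with a Con peak under 5 kb away had 715 bp (653 to 782) and 1.24 (1.12 to 1.36). The sites in between, 137 of them, had 631 bp and 1.37. Sites near Con peaks were thus the broader and flatter ones. Without the 14 sites of the 2 densest bins described below, the medians kept this order. Widths were then 691.5 bp (641 to 742) near and 581 bp (552 to 649) far, with overlapping intervals. Heights were 1.26 (1.14 to 1.39) near and 1.56 (1.41 to 1.73) far, and these intervals did not overlap.

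Most sites had no other site within 100 kb. No spacing of an equal number of drawn shHMGA1 peaks was computed, so gathering beyond that of the peaks was not tested. The median distance from a site to the next one was 2.06 Mb, or 2064731 bp, with 1.23% having another within 10 kb (4 sites), 6.48% within 100 kb (21 sites) and 34.3% within 1 Mb (111 sites, 29.1 to 39.7). Joined at 100 kb, the 324 sites formed 303 single sites, 9 pairs and 1 run of 3. Control-only sites, which are more numerous, had 12.5% with another within 100 kb and 52.2% within 1 Mb. The closest pair was on chromosome 2 from 166457391 to 166459019 (2q24.3), 1.63 kb from end to end. The only run of 3 was on chromosome 3 from 64782170 to 64941261 (3p14.1), where 159 kb held 3 shHMGA1 peaks, all 3 of them sites, and 0 Con peaks.

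Many sites were the only shHMGA1 peak lying wholly between their flanking Con peaks. These stretches end at Con peaks by definition, and they can be short. Only peaks wholly inside a stretch were counted, so a peak that overlapped a flanking peak of the other list was left out. Another shHMGA1 peak lay under 5000 bp away at 118 sites (36.4%), and a Con peak at 111 (34.3%). The stretch between the flanking Con peaks had a median length of 41.7 kb (36.3 to 47.8). In 203 cases (62.7%, 57.1 to 67.9) the site was the only shHMGA1 peak wholly inside it. A further 84 sites lay in stretches with 2 shHMGA1 peaks and 37 in stretches with 3 or more, where a stretch with several sites counts once for each of them. Control-only sites were the only Con peak between flanking shHMGA1 peaks in 49.1% (45.3 to 52.9), but the Con list holds more peaks.

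Counted in this way, the first 3 stretches by number of shHMGA1 peaks and then by summed area lay on the short arm of chromosome 1. A stretch at 8q13.3 (chromosome 8 from 72770638 to 72851526) also held 5. Between the Con peaks that flank chromosome 1 from 37506990 to 37551064 (1p34.3), 44.1 kb held 9 shHMGA1 peaks covering 6128 bp, of which 1 was a site. At 1p34.2, from 44065463 to 44079599, 14.1 kb held 5 shHMGA1 peaks covering 5923 bp. The site from 44066733 to 44067958 had an area of 861 and a height of 0.702, and the one from 44072238 to 44073911 an area of 717 and a height of 0.428, the lowest of all 324 sites. Another peak there, from 44074056 to 44075690, missed the rule narrowly with an area of 699.8. All 5 had heights from 0.428 to 0.702, below the median of 1.37 over the 324 sites.

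Sites were found on all of chromosomes 1 to 22, in numbers that largely followed the number of shHMGA1 peaks. Over the range there were 3.54 sites per 1000 shHMGA1 peaks (3.16 to 3.94). Chromosome 1 held the most, 57 sites or 5.16 per 1000 (3.91 to 6.68), and chromosome 2 held 44 or 4.27 (3.10 to 5.72). The highest rate was on chromosome 18, with 14 sites or 5.96 per 1000 (3.26 to 9.98). Low rates were found on chromosome 14, with 2 sites or 0.996 per 1000 (0.121 to 3.59), chromosome 17, with 4 or 1.67 (0.455 to 4.27), and chromosome 11, with 10 or 1.97 (0.946 to 3.62). The intervals of all chromosomes but chromosome 1 included the rate of the range, and without the 2 densest bins chromosome 1 held 43 sites or 4.24 per 1000 (3.07 to 5.71), whose interval included it too.

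The balance with control-only sites also varied. Chromosome 11 held 10 shHMGA1-only and 51 control-only sites, a ratio of 0.196. Chromosome 14 held 2 and 11, and chromosome 20 held 3 and 13. On chromosome 1 the numbers were 57 and 84 (0.679), on chromosome 4 outside the dense segment 21 and 31 (0.677) and on chromosome 18 they were 14 and 21 (0.667). Chromosome 19 was the only one with more shHMGA1-only than control-only sites, 6 and 5, and chromosome 22 had 1 of each.

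**Figure D4:**
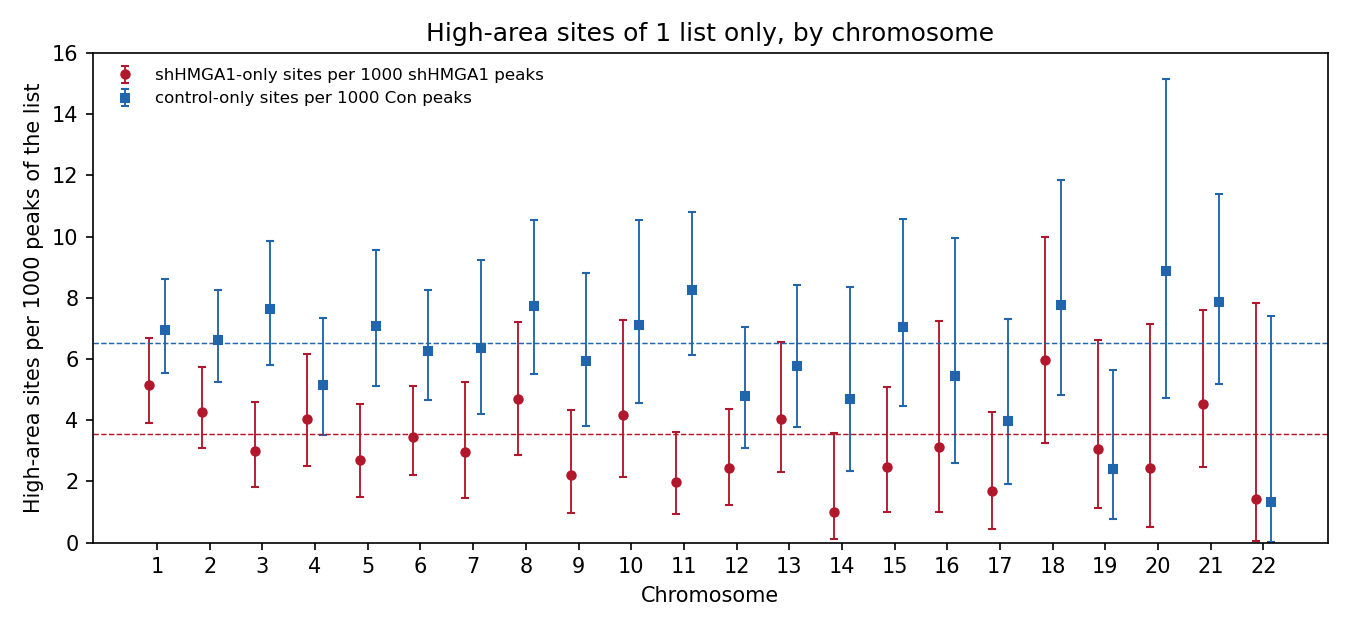
High-area sites of 1 list only per 1000 peaks of that list, by chromosome, for shHMGA1-only sites (circles) and control-only sites (squares). Bars are 95% exact intervals and dashed lines the rates of the whole range, 3.54 and 6.52 per 1000. The shHMGA1-only rate lay below the control-only rate on all chromosomes but 19 and 22.

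In windows of 5 Mb the sites were thinly spread. Of 558 bins with shHMGA1 peaks, 214 held a site, and 143 of those held exactly 1. There were 2 sites in 45 bins, 3 in 20, 4 in 3, 5 in 1 and 7 in 2. Both control-only and shHMGA1-only sites fell in 144 bins, while 70 held shHMGA1-only sites alone, 186 control-only sites alone and 158 neither. The overlap that separate placement would give was not computed. Of the 155 bins with at least 200 shHMGA1 peaks, 62 held no site.

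The densest bins were neighbours on chromosome 1. From 35000001 to 40000000 (hg19, 1p34.3), 7 of 414 shHMGA1 peaks were sites, or 16.9 per 1000 (6.82 to 34.5), which is 4.78 times the rate of the range, and 1 control-only site was found there. From 40000001 to 45000000 (1p34.2), 7 of 503 peaks were sites, or 13.9 per 1000 (5.61 to 28.5), 3.94 times the rate, with 0 control-only sites. Together they held 14 of the 324 sites (4.32%) and 1.00% of the shHMGA1 peaks. Peaks of any area were also more numerous in shHMGA1 in these bins, with 414 shHMGA1 against 302 Con peaks in the first and 503 against 414 in the second, while over the range the ratio was 0.878. Peaks of any area without a Con peak within 1000 bp made up 26.6% (22.4 to 31.1) and 23.9% (20.2 to 27.8) of the shHMGA1 peaks of these bins, against 12.3% over the range.

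The 14 sites of these bins were lower than the others. They had a median width of 1042 bp (589 to 1202) and a median height of 0.787 (0.682 to 1.25), against 642 bp (611 to 675) and 1.38 (1.33 to 1.47) for the other 310 sites. The intervals of the heights did not overlap, while those of the widths did. Their heights ran from 0.428 to 1.63 and those of the other sites from 0.470 to 3.83, so the ranges overlapped. With an area of 700 to 1000, 12 of these sites had a median width of 1042 bp (589 to 1202) and height of 0.731 (0.682 to 1.21). The peaks of these bins with that area and a Con peak within 1000 bp had median widths of 676 and 594 bp and heights of 1.17 and 1.34, lower than the 1.62 of such peaks over the range. Over all areas of at least 700, the peaks with a Con peak had median widths of 1204 and 1196 bp in these bins, against 831 bp over the range, so wide peaks there were not limited to the sites. The bins were picked for their number of sites, and the difference in shape was seen afterwards.

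In the 1p34.3 bin the sites began at 35242583, 36596001, 36784579, 37078591, 37349571, 37496993 and 37508843. Of these, 6 fell within 914 kb, a span with 177 shHMGA1 and 96 Con peaks. The largest, from 36784579 to 36785740, had an area of 1451 and a Con peak of area 9605 at a distance of 1090 bp, while the one at 37349571 stood 19156 bp from a Con peak. In the 1p34.2 bin the sites began at 41040496, 41341325, 42353978, 42479489, 43817554, 44066733 and 44072238. The site at 41040496 was the most distant of these, 36700 bp from a Con peak, and the one at 43817554 had a Con peak of area 10825 at 5131 bp.

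The other bins with at least 4 sites were on chromosome 1 from 75000001 to 80000000 (4 of 306 peaks, 3.70 times the rate of the range) and from 95000001 to 100000000 (4 of 424, 2.67 times), and on chromosome 2 from 195000001 to 200000000 (4 of 332, 3.41 times) and from 165000001 to 170000000 (5 of 445, 3.18 times). Besides both 1p34 bins, the intervals of the chromosome 1 bin from 75000001 (3.57 to 33.1 per 1000) and of the chromosome 2 bin with 5 sites (3.66 to 26.0) lay above 3.54, and those of the remaining pair included it. The bins were picked for high counts, so these intervals are descriptions. In the opposite direction, the bin richest in control-only sites, chromosome 11 from 125000001 to 130000000, held 0 shHMGA1-only sites among 431 shHMGA1 peaks, which allows up to 6.96 per 1000, and 13 control-only sites.

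**Figure D5:**
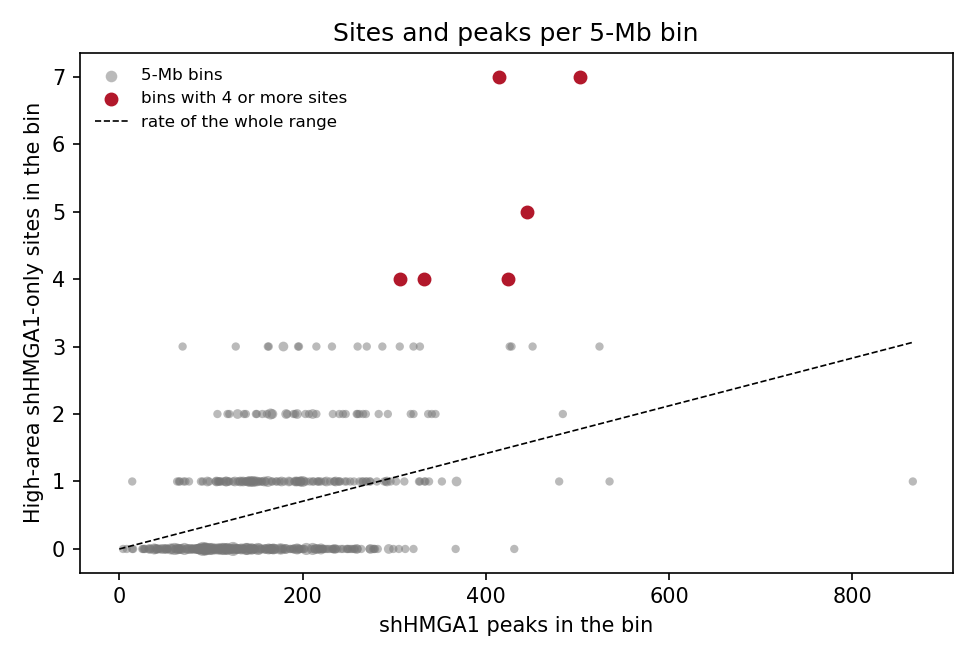
Number of high-area shHMGA1-only sites against the number of shHMGA1 peaks in each 5-Mb bin, with the 6 bins of 4 or more sites in red and the rate of the whole range as a dashed line. Larger grey points stand for several bins at the same place. Both bins with 7 sites held 414 and 503 peaks, while the 62 bins with at least 200 peaks and no site lie on the base line.

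The sites were placed somewhat more often in bands that stain dark with Giemsa, which are known to be AT-rich and poor in genes. In Giemsa-negative bands there were 134 sites, or 3.01 per 1000 shHMGA1 peaks (2.53 to 3.57). In the lightest positive class there were 25, or 3.53 (2.28 to 5.20), and in the next 42, or 3.92 (2.83 to 5.30). In bands of the second darkest class there were 62, or 4.93 (3.78 to 6.31), and in the darkest class 60, or 3.91 (2.98 to 5.03). Of the positive classes, only the second darkest had an interval above the 3.54 of the range. All Giemsa-positive bands together held 58.3% (52.8 to 63.8) of the sites, against 46.3% (45.9 to 46.8) of the high-area shHMGA1 peaks with a Con peak within 1000 bp. The share of all shHMGA1 peaks of the range was 49.9% (49.6 to 50.3). Weaker shHMGA1-only peaks had a share of 56.5% (55.5 to 57.4) and control-only sites one of 51.8% (47.9 to 55.6), and both intervals overlapped that of the sites. The rates did not rise evenly with the darkness of the band. Centromeric bands held 1 site among 979 shHMGA1 peaks, or 1.02 per 1000 (0.0259 to 5.68), and variable bands 0 of 437, which allows up to 6.86 per 1000, so neither differed detectably from the range. Within 5 Mb of a chromosome end lay 17 sites (5.25%, 3.09 to 8.27), whose interval included the 7.16% of all shHMGA1 peaks of the range and overlapped the 8.68% (6.67 to 11.0) of control-only sites.

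By single bands, 211 of 770 bands with shHMGA1 peaks held a site, and 146 of them 1 site. Band 1p31.1 held 7 sites among 895 peaks, 1p34.2 held 7 among 393 and 1p34.3 held 7 among 421. Then came 2q24.3 with 6 of 535 and 1p21.3 with 5 of 428. Bands 21q22.3, 2q31.1, 2q32.1, 2q33.1 and 8q22.3 held 4 each. Among bands with 3 or more sites the highest rates were those of 7q21.13, with 3 of 39 or 76.9 per 1000, and 12p13.2, with 3 of 82 or 36.6 per 1000.

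The weaker peaks around the sites were more evenly divided between the lists than elsewhere. Peaks with an area below 700 were counted within 250 kb of each summit, beyond 1000 bp from the site. There were 4843 shHMGA1 and 5048 Con peaks around the 324 sites, a ratio of 0.959, and 4250 and 4702 around the 310 sites outside the 2 densest bins, a ratio of 0.904. Around high-area shHMGA1 peaks that overlapped a Con peak the ratio was 0.880, around control-only sites it was 0.789, and over the whole range it was 0.859. Of the weaker peaks that overlapped no peak of the other list, 46.4% were shHMGA1-only around the sites (41.6% outside the 2 densest bins), against 35.6% around overlapping peaks, 26.5% around control-only sites and 34.4% over the range. The same order held within 50 kb and within 1 Mb, where the ratios around the sites were 0.984 and 0.944 and those around control-only sites 0.784 and 0.802. Windows around neighbouring sites overlap, so these sums hold some peaks more than once. Any Con peak within 1000 bp kept a peak from being a site, so the rule favours places with few weak Con peaks. With the lists exchanged it favours the reverse, so this order of ratios is not independent of the rule.

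Along the chromosomes the same balance was seen. Bins with at least 20 peaks in each list were put in 3 groups of near equal size by the ratio of weaker shHMGA1 to weaker Con peaks. In the lowest group there were 77 shHMGA1-only sites, or 2.85 per 1000 shHMGA1 peaks (2.25 to 3.56), and 303 control-only sites, or 8.74 per 1000 Con peaks (7.79 to 9.78). The middle group held 98 sites (3.15, 2.56 to 3.84) and 214 control-only sites (6.05, 5.26 to 6.91). In the highest group there were 148 sites (4.43, 3.75 to 5.20) and 163 control-only sites (4.76, 4.06 to 5.55). Sites of either list were thus more frequent where the weak peaks of that list were also relatively many. Weak peaks of the other list can keep a peak from being a site, so this grouping is not independent of the rule. The part of this regional balance in the calling of the sites was not tested.

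The thresholds of the rule fall in a continuous range of values. The sites with the smallest areas had 700.1 (chromosome 1 from 190231026), 700.3 (chromosome 1 from 36596001) and 700.4 (chromosome 18 from 72992471), and the shHMGA1-only peaks just below had 699.8, 699.3 and 699.0. The sites with the nearest Con peak had it at 1018 bp (on chromosome 4 from 13120103 and on chromosome 8 from 80682059) and at 1032 bp (chromosome 5 from 36730371). The high-area peaks just within the distance had it at 992, 949 and 939 bp. In all, 69 shHMGA1 peaks with an area of at least 700 did not overlap a Con peak but had one within 1000 bp. The Con peak nearest to a site had a median area of 517 (459 to 640), and at 80 sites (24.7%, 20.1 to 29.8) it was below 300, against 21.8% of all Con peaks of the range.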

How the data were processed

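ATAC-seq was done on 6 samples in 2 groups of 3. Tagmentation used 50000 cells and 2 µl of transposase, at 37 °C over 45 min, per the labels. The authors deposited 1 narrowPeak list per group, assigned by its name (shHMGA1 or Con). Per the submitters' processing notes, peaks were called with Genrich on hg19 (its version and settings, read alignment and filtering, and how the 3 samples became 1 list: not given in the sources used here). Summits carry an unadjusted −log10 p, as deposited. The deposited area is a score of the peak caller, and the deposited score column equals 1000 times area over width (after rounding to a whole number, with 1000 as the cap) in 112608 of 112610 shHMGA1 rows and 127153 of 127153 Con rows.

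Gaps between peaks were counted in bases (a gap of 1000 or less was within 1000 bp), and were identical to those of bedtools 2.31.1 at 112610 of 112610 shHMGA1 peaks; on simulated lists 100 of 100 planted sites were recovered. Bins and bands (table of circlize 0.4.16) were assigned by summit. Intervals came from scipy 1.17.1 and figures from matplotlib 3.10.9, with pandas 2.3.3 and numpy 2.4.6 under Python 3.11.15. Named sites were the 10 largest, the 5 tallest, the 5 farthest from a Con peak, those of the 2 bins with the highest rate among bins with at least 4 sites and 20 peaks, and those next to the thresholds. Members and lists were chosen with earlier results of these data known. The splits by distance, stretch, stain and surroundings, and the comparisons of densest bins, were chosen after seeing the data. No sequence is printed.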

Additional observations from a re-analysis of the deposited data

How the results depend on the processing

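Over 9 alternative settings, of which 1 (without the 2 densest bins) was chosen after seeing the data, 42 of 72 values stayed within the interval of the reported value or, for counts, within 1.5 times of it. An area of at least 500 gave 1044 shHMGA1-only and 2402 control-only sites, 1.98% of high-area shHMGA1 peaks, a median width of 559.5 bp and height of 1.20, 64.5% with another site within 1 Mb and 25 sites in the fullest bin. An area of at least 1000 gave 76 and 121 sites, 0.239%, 807 bp, a height of 1.72, 13457 bp to the nearest shared peak, 7.89% within 1 Mb and 2 in the fullest bin. Requiring only that no Con peak overlapped gave 0.944%, 8013 bp to a shared peak, 41.2% within 1 Mb and 11 in the fullest bin. A distance of 5000 bp gave 213 and 393 sites, 0.512%, 613 bp, 17191 bp to a shared peak and 22.5% within 1 Mb. Ignoring peaks of the other list with an area below 300 gave 635 and 1488 sites, 1.53% and 53.1% within 1 Mb. Keeping the 4q and 9p ranges gave 0.664%. A different threshold or distance changes which peaks are counted by construction. Chromosome X, merging within 150 bp and leaving out the 2 densest bins moved none of the values. Control-only sites were the more numerous under every setting run. No paired analysis was possible because the samples of a group are joined in a single peak list, and no replicate could be left out for the same reason. Unknown read depth limits every call near the thresholds.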

Other observations

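Outside the range described, the same area and distance gave few sites. In the 4q segment, 8 of 4523 high-area shHMGA1 peaks had no Con peak within 1000 bp (0.177%), against 62 of 5285 high-area Con peaks with no shHMGA1 peak (1.17%). In the 9p segment the counts were 3 of 4298 shHMGA1 peaks (0.0698%) and 15 of 4693 Con peaks (0.320%). On chromosome X they were 4 of 732 shHMGA1 peaks (0.546%) and 14 of 792 Con peaks (1.77%). The chromosome 21 bin from 30000001 to 35000000 held 1 shHMGA1-only and 11 control-only sites, with 480 shHMGA1 and 623 Con peaks.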
